A study of Mus musculus with 6 samples.

Results

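The genes described here are 9 members of the TGF-beta system: the ligand genes Tgfb1, Tgfb2 and Tgfb3, the receptor genes Tgfbr1 and Tgfbr2, the signal transducer gene Smad3, its inhibitor gene Smad7, the activin chain gene Inhba and the target gene Tgfbi. They were chosen by symbol: a probe set was taken when its platform annotation gave exactly 1 of these names. This gave 24 of the 45037 non-control probe sets, and for each gene the brightest of its probe sets, by mean over the arrays, is the leading one. All 9 genes passed the filter on dim genes with their leading probe set, among 13090 of 18193 genes, and 18 of the 24 probe sets lay above that level.

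The arrays profiled MVT1 cells, a metastatic line from a mouse mammary tumour, carrying green fluorescent protein (GFP). FVB/N mice received the cells intravenously, and GFP-positive cells were later sorted from their lungs. The 3 groups of 2 arrays each were GW2580 at 2 weeks after injection (the CSF1 receptor kinase inhibitor at 160 mg per kg by daily gavage, begun at 1 week), vehicle at 2 weeks, and vehicle at 1 week. The sample records give a gavage start of 1 week for the vehicle groups too. Vehicle at 2 weeks and vehicle at 1 week may thus differ in time on gavage as well as in time after injection, and these cannot be told apart. All groups carried the same tagged line in the same strain. The vehicle groups came from 2 mice each by the design text, while how many mice stand behind the GW2580 arrays was not stated. The spread within the GW2580 group may therefore be technical. Because 1 spread per gene was estimated over all 6 arrays, this bears on the p-values of every comparison, also that between the vehicle groups.

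TGF-beta ligands are secreted in latent complexes and must be released before they bind. The receptor encoded by Tgfbr2 captures ligand and activates the kinase encoded by Tgfbr1, which phosphorylates SMAD2 and SMAD3; these enter the nucleus with SMAD4 and regulate transcription. In epithelial tumours the pathway is known for slowing growth at early stages and for promoting invasion, matrix production and immune suppression later.

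Levels are RMA log2 values, in which 1 unit is a 2-fold difference, and differences are on the same scale with limma standard errors (SE). A gene was called at a limma adjusted p under 0.05 over all 13090 genes. Means are given ± SD over 2 arrays. Levels of different probe sets are not compared with each other, because each has its own response. In sorted bulk material, more cells of a type and more RNA per cell cannot be told apart. Arrays give no read depth, and their small number limits the precision.

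One array stood apart. On replicate 2 of vehicle at 2 weeks the 3' minus 5' difference of the beta-actin control probe sets was 1.20, where the remaining arrays had 0.38 to 0.50, and that of Gapdh was 0.92, where they had -0.13 to -0.10. Keratin 8 (Krt8), a marker of simple epithelium, read 13.5 to 13.8 on every array. Markers of other cells were also detected, and their mean levels are given beside Tgfbi.

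Tgfbi was the only one of the 9 genes called in any comparison. It encodes a secreted matrix protein that binds collagen and integrins and was named for its induction by TGF-beta. The gene rose between 1 and 2 weeks. Its level was higher at 2 weeks than at 1 week with either treatment: 3.61-fold higher with GW2580 than at 1 week (95% interval 2.76 to 4.70) and 2.90-fold higher with vehicle at 2 weeks than at 1 week (2.23 to 3.79). GW2580 and vehicle at 2 weeks differed 1.24-fold, with an interval of 0.952 to 1.62 that includes no difference.

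The upstream sequences of 3 genes are printed for reference, and no expression result here depends on them. The genes are Tgfbi, the activin chain gene Inhbb, which also rose on its leading probe set, and the cytokine gene Il11, a known TGF-beta target that fell. Each run is the 250 bases before the annotated start, 5' to 3' on the gene's strand, from RefSeq on GRCm38.p6. Capitals mark CAGAC or its reverse complement GTCTG, the short element that SMAD3 and SMAD4 bind, and for Il11 the first of its listed starts is shown. The regions are chr13:56609336-56609585 on the plus strand for Tgfbi, chr1:119422249-119422498 on the minus strand for Inhbb and chr7:4782858-4783107 on the minus strand for Il11.
Tgfbi: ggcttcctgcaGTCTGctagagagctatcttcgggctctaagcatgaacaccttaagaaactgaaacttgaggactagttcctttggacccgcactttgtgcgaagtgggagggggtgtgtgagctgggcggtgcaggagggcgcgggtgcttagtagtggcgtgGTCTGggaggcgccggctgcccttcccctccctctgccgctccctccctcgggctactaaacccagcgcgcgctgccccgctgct
Inhbb: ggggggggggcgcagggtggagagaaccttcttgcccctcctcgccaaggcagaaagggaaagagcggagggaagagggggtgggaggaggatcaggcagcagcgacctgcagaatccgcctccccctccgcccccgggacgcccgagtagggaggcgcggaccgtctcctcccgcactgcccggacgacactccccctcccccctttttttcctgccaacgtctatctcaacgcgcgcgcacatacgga
Il11: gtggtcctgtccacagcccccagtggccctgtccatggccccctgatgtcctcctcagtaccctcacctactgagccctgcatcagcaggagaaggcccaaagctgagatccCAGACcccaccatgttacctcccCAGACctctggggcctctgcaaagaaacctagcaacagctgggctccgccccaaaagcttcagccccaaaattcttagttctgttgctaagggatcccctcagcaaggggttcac
The Tgfbi run held 2 matches, beginning 239 and 85 bases before the start, the Inhbb run 0 and the Il11 run 2, beginning 138 and 115 bases before it. Of 32851 promoters of this length in the table, 42.2% held at least 1 match and 11.7% at least 2, on both strands together. The palindrome GTCTAGAC, which shares no full CAGAC or GTCTG with it, occurred in 0.167% of promoters and in 0 of these 3. Of the 9 genes, 7 had a promoter in the table; 4 of these held CAGAC in at least 1 listed promoter and 0 held GTCTAGAC. Tgfb3 and Smad7 were not in the table. A match describes the letters only.

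The leading probe set of Tgfbi, 1456250_x_at, read 9.0 and 9.09 on the GW2580 arrays, 8.64 and 8.82 with vehicle at 2 weeks, and 6.98 and 7.40 with vehicle at 1 week. All 4 arrays taken at 2 weeks lay above both 1-week arrays, and both GW2580 arrays lay above both vehicle arrays of the same time. The 2-week vehicle arrays exceeded the 1-week arrays by 1.54 (SE 0.17, limma adjusted p 0.0102), with group means of 8.73 ± 0.13 and 7.19 ± 0.30. GW2580 exceeded vehicle at 1 week by 1.85 (SE 0.17, limma adjusted p 0.00638), with a GW2580 mean of 9.04 ± 0.07. GW2580 exceeded vehicle at 2 weeks by 0.31 (SE 0.17, limma adjusted p 0.367), which did not pass. By limma p, Tgfbi ranked 18 of 13090 genes for vehicle at 2 weeks against 1 week and 8 for GW2580 against vehicle at 1 week; these comparisons share the 1-week arrays. Without replicate 1 of vehicle at 1 week the differences were 1.32 (adjusted p 0.0924) and 1.64 (adjusted p 0.0783), and without replicate 2 of GW2580 the difference from vehicle at 1 week was 1.80 (adjusted p 0.0922), none past the threshold. Without replicate 2 of vehicle at 2 weeks, the array with the raised 3' to 5' ratio, the rise between weeks was 1.44 and stayed called when all probe sets were fitted (limma adjusted p 0.0464).

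**Figure D1:**
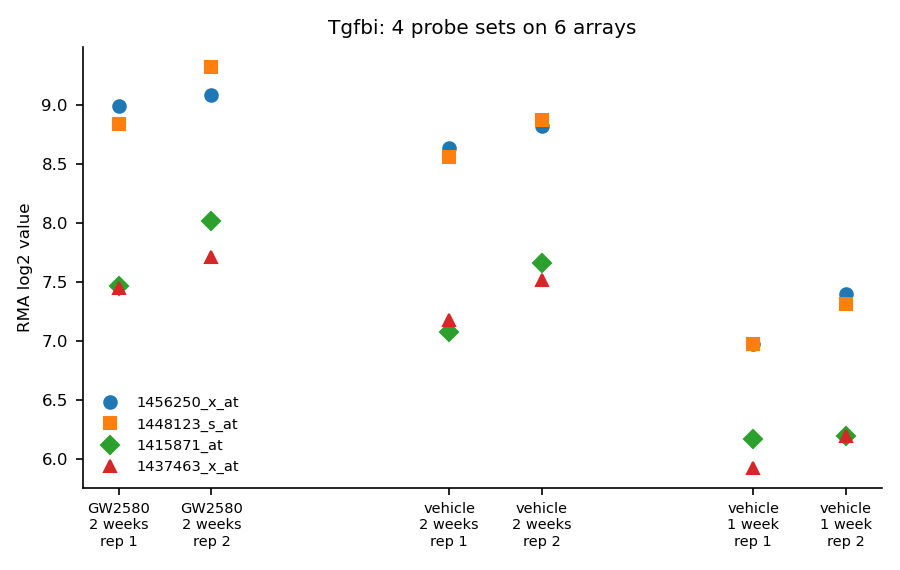
RMA log2 value (y axis) of the 4 Tgfbi probe sets on each of the 6 arrays (x axis, by group and replicate), 1 symbol per probe set. On each probe set both 1-week arrays sit below the 4 arrays taken at 2 weeks.

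The other 3 probe sets of Tgfbi followed the same order of groups. Probe set 1448123_s_at read 8.84 and 9.33 with GW2580, 8.56 and 8.88 with vehicle at 2 weeks, and 6.98 and 7.31 with vehicle at 1 week. Probe set 1415871_at read 7.47 and 8.02 with GW2580, 7.08 and 7.66 with vehicle at 2 weeks, and 6.17 and 6.19 with vehicle at 1 week. Probe set 1437463_x_at read 7.45 and 7.72 with GW2580, 7.18 and 7.52 with vehicle at 2 weeks, and 5.93 and 6.20 with vehicle at 1 week. On these 3 the GW2580 arrays overlapped the 2-week vehicle arrays, so the separation of those groups was seen on the leading probe set alone. In the limma fit of all 45037 probe sets, the differences of vehicle at 2 weeks from 1 week were 1.57, 1.19 and 1.29 (adjusted p 0.0187, 0.0471 and 0.0209), and all were called, where 2.39% of all probe sets were. The differences of GW2580 from vehicle at 1 week were 1.94, 1.56 and 1.52 (limma adjusted p 0.0288, 0.0836 and 0.0391), of which 1415871_at did not pass, where 0.0799% of all probe sets were called. Over the 6 arrays the 4 probe sets correlated with each other at r = 0.953 to 0.997, and they share the arrays and the labelled RNA. Between GW2580 and vehicle at 2 weeks the 4 probe sets differed by 0.23 to 0.37, and by limma none was called where 0.429% of all probe sets were. Without replicate 2 of vehicle at 2 weeks, the differences of vehicle at 2 weeks from 1 week on the 3 further probe sets were 1.42, 0.90 and 1.12 (limma adjusted p 0.0616, 0.151 and 0.0652), none past the threshold with 1 array fewer.

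Tgfbi is made by many cell types, macrophages and fibroblasts among them, so the marker lists are given here. The mean over 17 macrophage and monocyte markers was 6.40 and 6.73 with GW2580, 6.65 and 6.77 with vehicle at 2 weeks, and 6.73 and 6.74 at 1 week. Of the 15 above the filter 0 rose, and Ptprc, the pan-leukocyte phosphatase gene, fell between weeks; Itgam and Aif1 lay below the filter. The macrophage gene Cd68 read 9.92 and 10.99 with GW2580, 10.76 and 11.00 with vehicle at 2 weeks, and 9.66 and 10.15 at 1 week, without passing the test. With vehicle, the means of C1qa and C1qc were also higher at 2 weeks, while those of Csf1r, Mrc1, Laptm5 and Marco were lower, none of them called. The mean over 12 fibroblast and smooth muscle markers was 6.99 and 6.43 with GW2580, 6.59 and 6.66 with vehicle at 2 weeks, and 7.76 and 6.91 at 1 week, so it was not higher at 2 weeks. Of the 11 fibroblast markers above the filter 0 were called in any comparison (limma). The platelet markers averaged 6.22 to 6.27 with GW2580, 6.14 to 6.16 with vehicle at 2 weeks and 6.09 to 6.16 at 1 week, with 0 of 6 called, and the 7 neutrophil markers averaged 5.81 to 6.58, 6.33 to 6.59 and 5.99 to 6.23 in the same groups, also with 0 of 6 called. The means were 5.51 to 5.52 with GW2580, 5.43 to 5.56 with vehicle at 2 weeks and 5.43 to 5.65 at 1 week for endothelial markers, and 5.34 to 5.39, 5.21 to 5.30 and 5.48 to 5.49 for lymphocyte markers, with 0 of 6 called in each list. Lung epithelium markers averaged 6.69 to 7.40 with GW2580, 7.30 to 7.31 with vehicle at 2 weeks and 7.40 to 7.61 at 1 week. Of its 11 markers, all above the filter, only the surfactant gene Sftpd was called between weeks, and it rose. Sftpd and Sftpa1 were the only 2 called between GW2580 and vehicle at 2 weeks, both lower with GW2580. The list members Scgb1a1 and Scgb3a2 went the other way without being called. Scgb1a1 averaged 9.25 ± 2.35 with GW2580, 7.28 ± 1.12 with vehicle at 2 weeks and 10.45 ± 1.21 at 1 week. Scgb3a2 averaged 6.70 ± 1.67, 5.05 ± 0.48 and 7.32 ± 1.14 in the same groups. The GW2580 arrays lay far apart, at 10.91 and 7.59 for Scgb1a1 and 7.88 and 5.52 for Scgb3a2. Mammary and carcinoma markers averaged 7.43 to 7.44 with GW2580, 7.12 to 7.28 with vehicle at 2 weeks and 7.35 to 7.56 at 1 week, and the milk gene Csn3 fell between weeks. The part of other cells in the Tgfbi difference was not tested.

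The 3 genes most like Tgfbi by Pearson r of leading probe sets over the 6 arrays were Mdm4, which encodes an inhibitor of p53 (r = 0.995), Cp, for the copper carrier ceruloplasmin (r = 0.993), and Tanc2, for a scaffold protein of synapses (r = 0.993). Mdm4 read 8.53 and 8.48 with GW2580, 8.39 and 8.45 with vehicle at 2 weeks, and 7.79 and 7.96 at 1 week. Of the other 13089 genes tested 77 had r above 0.95, and all values share the 6 arrays.

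The remaining 8 genes did not pass in any comparison. Between vehicle at 2 weeks and vehicle at 1 week 1 of 9 genes was called, where 6.45% of all genes tested were (3.74% higher and 2.71% lower), and 2 had an unadjusted p under 0.05, beside 23.6%. With GW2580 against vehicle at 2 weeks 0 of 9 were called by limma, where 0.367% of all genes were (0.0688% higher and 0.298% lower), and Tgfb3 and Smad7 had an unadjusted p under 0.05, beside 18.0% of all genes. With GW2580 against vehicle at 1 week 1 of 9 was called, where 0.512% of all genes were (0.359% higher and 0.153% lower), and 1 had an unadjusted p under 0.05, beside 17.0%. The median difference of the 9 genes was -0.16, 0.26 and 0.15 in these comparisons, beside 0.02, -0.05 and -0.02 over all genes tested.

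**Figure D2:**
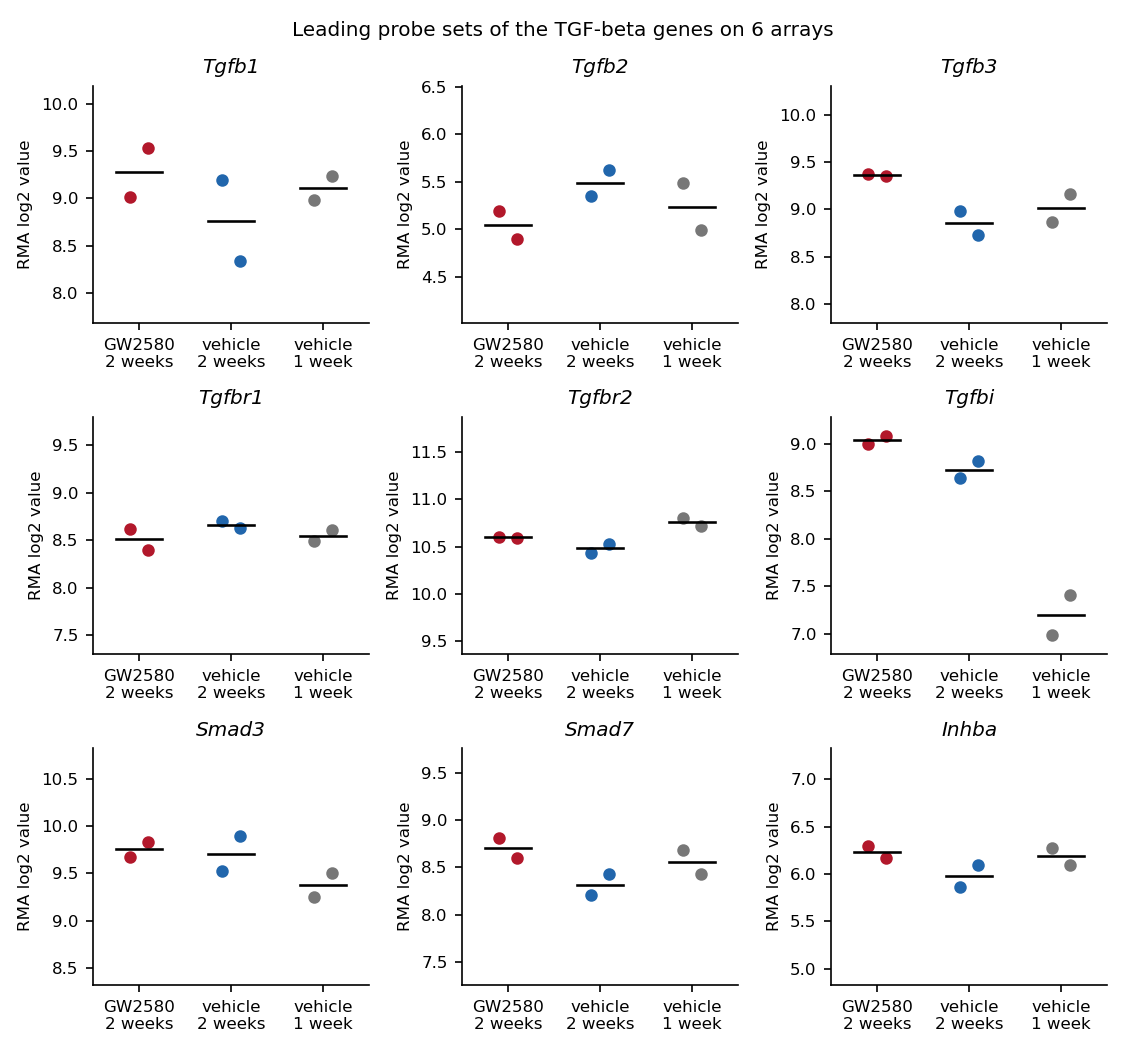
RMA log2 value (y axis, every panel spanning 2.5 log2 units) of the leading probe set of each of the 9 genes in the 3 groups (x axis); points are arrays and bars are group means. Tgfbi is low on both 1-week arrays, while for the other genes the group means lie within 0.51 log2 units of each other.

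Of the ligand genes, Tgfb1 encodes the isoform made most widely by tumour, immune and stromal cells. Its leading probe set read 9.01 and 9.54 with GW2580, 9.19 and 8.33 with vehicle at 2 weeks, and 8.98 and 9.24 with vehicle at 1 week. Replicate 2 of vehicle at 2 weeks was the low array, and the groups overlapped in every comparison. The difference of vehicle at 2 weeks from 1 week was -0.35 (SE 0.28, limma adjusted p 0.525) and that of GW2580 from vehicle at 2 weeks 0.51 (SE 0.28, limma adjusted p 0.385). Without that array these were 0.08 and 0.08, so the first changed sign. The dimmer second probe set, 1445360_at, ranged from 5.51 to 5.90 and differed by -0.12 and 0.19.

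Tgfb3 encodes the isoform known from palate and mammary involution. It read 9.38 and 9.35 with GW2580, 8.98 and 8.73 with vehicle at 2 weeks, and 8.87 and 9.16 with vehicle at 1 week. Both GW2580 arrays lay above the 4 vehicle arrays, and the vehicle groups overlapped each other. The difference of GW2580 from vehicle at 2 weeks was 0.51 (SE 0.15, 95% interval 0.16 to 0.86), with an unadjusted p of 0.0103 and a limma adjusted p of 0.150, which did not pass; 0.38 remained without replicate 2 of vehicle at 2 weeks. From vehicle at 1 week GW2580 differed by 0.34 (SE 0.15, limma adjusted p 0.303). Tgfb3 had 1 probe set, so no second one bears on these values.

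Tgfb2 was dim on every probe set. Its leading one read 5.20 and 4.89 with GW2580, 5.35 and 5.63 with vehicle at 2 weeks, and 5.49 and 4.99 with vehicle at 1 week. GW2580 lay below vehicle at 2 weeks on both arrays, by 0.45 (SE 0.20, limma adjusted p 0.290). The other 3 probe sets lay below the filter, between 3.59 and 4.16, with differences of -0.30, -0.14 and 0.06 in that comparison, so they did not share a sign.

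Inhba encodes the chain of activin A, a ligand that acts through activin receptors on the same SMAD2 and SMAD3. It read 6.30 and 6.17 with GW2580, 5.86 and 6.10 with vehicle at 2 weeks, and 6.28 and 6.10 with vehicle at 1 week. The GW2580 arrays lay above the 2-week vehicle arrays, by 0.26 (SE 0.14, limma adjusted p 0.386), and overlapped the 1-week arrays. The second probe set ranged from 5.23 to 5.49 and differed by -0.01 between GW2580 and vehicle at 2 weeks.

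Neither receptor gene passed in any comparison. Tgfbr1, the signalling kinase gene, read 8.62 and 8.40 with GW2580, 8.70 and 8.63 with vehicle at 2 weeks, and 8.49 and 8.60 with vehicle at 1 week. On this leading probe set the groups lay close together, and the difference of vehicle at 2 weeks from 1 week was 0.12 (95% interval -0.19 to 0.42). The other Tgfbr1 probe sets, 1420893_a_at and 1420894_at, lay below the filter. They differed by -0.25 and -0.08 between weeks, opposite in sign to the leading one, and neither was called. Tgfbr2, the ligand-binding receptor gene, read 10.60 and 10.59 with GW2580, 10.43 and 10.53 with vehicle at 2 weeks, and 10.80 and 10.72 with vehicle at 1 week. Both 1-week arrays were the highest, and vehicle at 2 weeks differed from 1 week by -0.28 (SE 0.12, unadjusted p 0.0496, limma adjusted p 0.211). For GW2580 against vehicle at 2 weeks the intervals were -0.46 to 0.15 for Tgfbr1 and -0.16 to 0.39 for Tgfbr2, so differences within these bounds were not resolved.

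Smad3, the receptor-activated transducer gene, read 9.68 and 9.83 with GW2580, 9.52 and 9.89 with vehicle at 2 weeks, and 9.25 and 9.50 with vehicle at 1 week. The 4 arrays at 2 weeks lay above both 1-week arrays, by 0.33 for vehicle (SE 0.16, limma adjusted p 0.278) and 0.37 for GW2580 (SE 0.16, limma adjusted p 0.302), and neither passed. Without replicate 2 of vehicle at 2 weeks the Smad3 difference for vehicle was 0.15, and over all fits with 1 array left out it ran from 0.15 to 0.51. Smad7, the inhibitory SMAD gene that TGF-beta itself induces, read 8.81 and 8.60 with GW2580, 8.21 and 8.43 with vehicle at 2 weeks, and 8.68 and 8.44 with vehicle at 1 week. The 2-week vehicle arrays were the 2 lowest, and GW2580 exceeded them by 0.39 (SE 0.15, unadjusted p 0.0346, limma adjusted p 0.239). Its dimmer second probe set ranged from 5.29 to 5.61 and differed by 0.15.

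**Figure D3:**
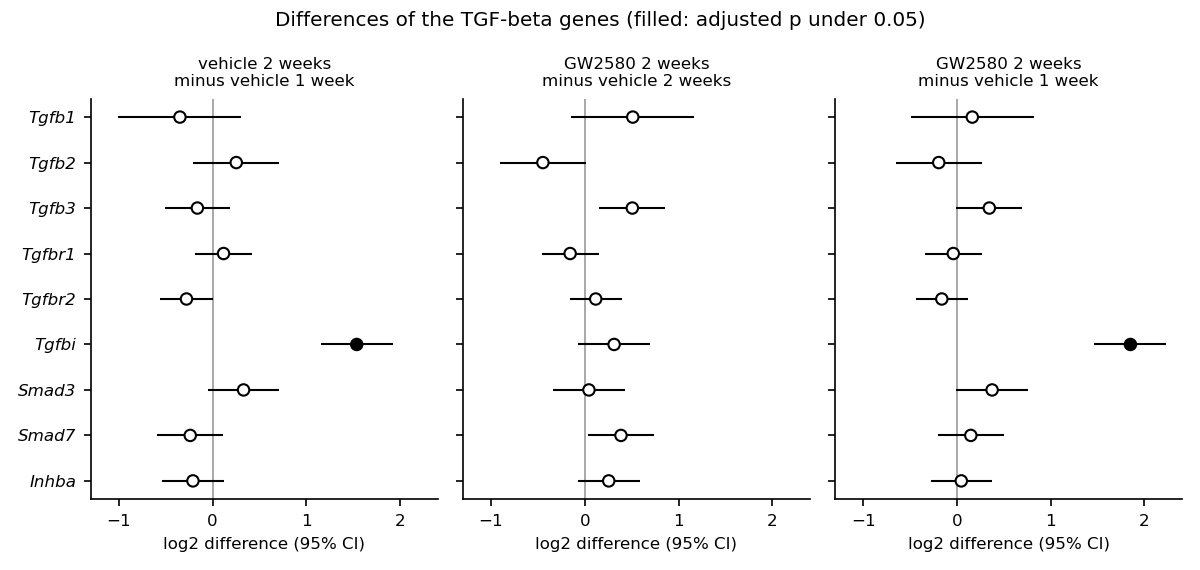
Log2 difference (x axis, points) with limma 95% confidence intervals (bars) of the 9 genes (y axis) in the 3 comparisons; filled points have an adjusted p under 0.05. Tgfbi is filled at 1.54 and 1.85 in the comparisons with vehicle at 1 week, and the intervals of most other genes include 0.

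The groups did not overlap for 7 of the 9 genes between GW2580 and vehicle at 2 weeks, where 49.8% of all genes tested did not. The genes Tgfb3, Tgfbr2, Tgfbi, Smad7 and Inhba, were higher with GW2580, where 18.3% of all genes lay higher without overlap. Tgfb2 and Tgfbr1 were lower, where 31.5% were; with each array set to a common 75th percentile Tgfbr1 overlapped and the other 6 did not. Between vehicle at 2 weeks and 1 week the groups did not overlap for 5 genes (3 higher, 2 lower), where 56.7% of all genes did not (31.5% higher, 25.2% lower). For 4 genes GW2580 and vehicle at 1 week did not overlap (3 higher, 1 lower), beside 46.7% (18.8% higher, 27.9% lower). These comparisons share arrays, and the 9 genes were chosen with earlier results known.

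Probe sets of the same gene disagreed on the array with the raised 3' to 5' ratio. Probe sets 1450471_at and 1450472_s_at of Smad3 read 5.75 and 5.57 on replicate 2 of vehicle at 2 weeks, against 7.0 to 7.65 and 6.63 to 7.43 on the other 5 arrays. Probe set 1425444_a_at of Tgfbr2 read 6.53 on it, against 7.68 to 8.08 elsewhere. These 3 lay 1.52, 1.34 and 1.36 log2 units below the mean of the other arrays, while the leading probe sets of the same genes lay 0.33 above it and 0.10 below it. Of the 18 probe sets above the filter 3, or 16.7%, were over 1 unit below on this array, beside 1.84% of 27022 non-control probe sets above it.

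With all 6 arrays these probe sets gave differences of GW2580 from vehicle at 2 weeks of 0.87 and 0.83 for Smad3 and 0.75 for Tgfbr2 (limma adjusted p 0.334 to 0.399). Without the array, in a fit added after the data were seen, the differences were 0.09, 0.20 and 0.17. For vehicle at 2 weeks against 1 week, -0.59 and -0.61 for Smad3 became 0.19 and 0.02 without it, and -0.92 for Tgfbr2 became -0.35. The position of these probe sets along their transcripts was not analysed here, and the part of RNA integrity was not tested.

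**Figure D4:**
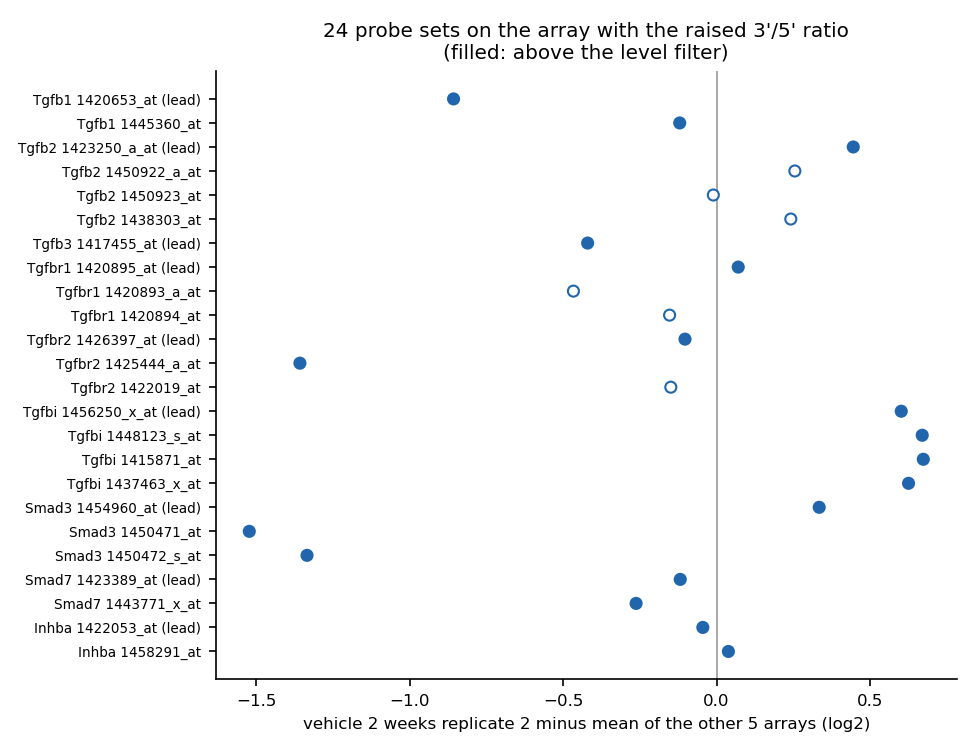
Level on replicate 2 of vehicle at 2 weeks minus the mean of the other 5 arrays (x axis, log2) for all 24 probe sets (y axis, ordered by gene); filled points are above the level filter. A pair of Smad3 probe sets and 1 of Tgfbr2 lie beyond 1 unit to the left. All 4 Tgfbi probe sets lie 0.60 to 0.67 to the right of a mean that includes the 1-week arrays, which are low for Tgfbi.

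The wider pathway was read from 79 other genes in 4 lists, of which 75 had a probe set and 62 were above the filter. Between vehicle at 2 weeks and 1 week 4 rose, 2 fell and 56 did not pass, or 9.68% called beside 6.45% of all genes. For GW2580 against vehicle at 2 weeks 0 of 62 were called by limma, beside 0.367% of all genes, and 16 (25.8%) had an unadjusted p under 0.05, beside 18.0% of all genes. Against vehicle at 1 week, 1 rose with GW2580 and 61 did not pass, or 1.61% called beside 0.512% of all genes, and 15 (24.2%) had an unadjusted p under 0.05, beside 17.0%. Unadjusted, 19 (30.6%) were under 0.05 between weeks, beside 23.6%. Between weeks the list of target genes held 1 gene that rose and 2 that fell, and each other list held 1 that rose. List medians over the comparisons lay between -0.13 and 0.31.

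Among 12 genes of ligand handling and other ligands 1 rose between weeks (median -0.03) and 0 passed in either GW2580 comparison (medians 0.11 and 0.20). The riser was Inhbb, the chain of activin B. It read 7.14 and 8.05 with GW2580, 7.15 and 7.74 with vehicle at 2 weeks, and 4.81 and 5.82 with vehicle at 1 week, so both 2-week groups lay above the 1-week arrays. Vehicle at 2 weeks exceeded 1 week by 2.13 (SE 0.39, limma adjusted p 0.0269), and GW2580 exceeded vehicle at 1 week by 2.29 (SE 0.39, limma adjusted p 0.0570), which did not pass. The second probe set of Inhbb, 1426859_at, differed by -0.01 between weeks, and the rise did not pass without replicate 1 of vehicle at 1 week (1.63) or without either 2-week vehicle array (2.43 and 1.84).

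Ltbp4, which encodes a latent TGF-beta binding protein, was 1.05 above the 1-week level in both 2-week groups (limma adjusted p 0.136 for GW2580 and 0.0780 for vehicle). Its GW2580 arrays read 7.64 and 8.70, and with 1 array left out the difference of GW2580 from vehicle at 1 week ran from 0.52 without replicate 2 of GW2580 to 1.58 without replicate 1. The Ltbp4 difference of vehicle at 2 weeks from 1 week ran from 0.92 to 1.19 in those fits. Thbs1, for thrombospondin 1, which can release active TGF-beta, differed by 0.88 between GW2580 and vehicle at 2 weeks (SE 0.30, limma adjusted p 0.192; 0.93 on its second probe set). With 1 array left out that Thbs1 difference ran from 0.46 without replicate 2 of GW2580 to 1.29 without replicate 1, and no such fit called it. Itgav, the integrin alpha V subunit gene whose dimers release latent TGF-beta, differed by 0.25 (SE 0.12, limma adjusted p 0.318) in the same comparison.

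Among 7 receptor and coreceptor genes 1 rose between weeks (median 0.22) and 0 passed with GW2580 (medians -0.04 and 0.31). Tgfbr3, which encodes the coreceptor betaglycan, read 10.33 and 10.77 with GW2580, 10.55 and 10.74 with vehicle at 2 weeks, and 9.58 and 10.03 with vehicle at 1 week. All arrays at 2 weeks were above those at 1 week, and vehicle rose by 0.84 between weeks (SE 0.20, limma adjusted p 0.0490), close to the threshold. It was not called without any 1 of the 4 vehicle arrays, with a lower filter or none, or with all probe sets, and 0.19 was seen on its second probe set. Acvr2a and Acvr1, genes of activin and BMP receptors, differed by -0.37 (SE 0.15) and 0.26 (SE 0.16) between GW2580 and vehicle at 2 weeks, with limma adjusted p of 0.250 and 0.441.

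Among 19 SMAD and regulator genes 1 rose between weeks (median 0.08), 0 passed between GW2580 and vehicle at 2 weeks (median -0.12) and 1 rose between GW2580 and vehicle at 1 week (median 0.01). Smad6, the inhibitory SMAD gene of BMP signalling, read 6.06 and 6.31 with GW2580, 5.45 and 5.33 with vehicle at 2 weeks, and 5.34 and 5.19 with vehicle at 1 week. Both GW2580 arrays lay above the 4 vehicle arrays. GW2580 exceeded vehicle at 1 week by 0.92 (SE 0.14, limma adjusted p 0.0412) and vehicle at 2 weeks by 0.79 (SE 0.14, limma adjusted p 0.0647), and the second of these did not pass. The call was lost on fitting only the 4 arrays compared (adjusted p 0.0719) and without any array other than replicate 1 of GW2580 (adjusted p 0.0719 to 0.278). Ppm1a, a phosphatase gene whose product can dephosphorylate SMAD2 and SMAD3, read 9.99 and 10.13 with GW2580, 10.65 and 10.60 with vehicle at 2 weeks, and 9.99 and 10.12 with vehicle at 1 week. It rose by 0.57 between weeks (SE 0.13, limma adjusted p 0.0407) and differed by -0.56 between GW2580 and vehicle at 2 weeks (limma adjusted p 0.0919). Its 7 other probe sets differed by -0.17 to 0.38 between weeks, and no fit without 1 of the 4 vehicle arrays kept the call.

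Among 24 target genes 1 rose and 2 fell between weeks (median -0.13), and 0 passed in either GW2580 comparison (medians 0.05 and -0.02). Sphk1, the sphingosine kinase 1 gene, read 6.88 and 7.57 with GW2580, 8.0 and 8.10 with vehicle at 2 weeks, and 5.80 and 6.06 with vehicle at 1 week. The 3 groups did not overlap, with GW2580 in between. Vehicle rose by 2.12 between weeks (SE 0.22, limma adjusted p 0.0102), while GW2580 differed from vehicle at 2 weeks by -0.83 (SE 0.22, limma adjusted p 0.127). The rise did not pass without replicate 1 of vehicle at 1 week (1.99), and a second probe set below the filter differed by 0.19.

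Tnc, for the matrix protein tenascin C, read 6.11 and 6.18 with GW2580, 5.09 and 5.52 with vehicle at 2 weeks, and 6.95 and 6.15 with vehicle at 1 week. It fell by 1.24 between weeks (SE 0.26, limma adjusted p 0.0354). Il11, the cytokine gene, read 7.22 and 7.04 with GW2580, 6.56 and 6.93 with vehicle at 2 weeks, and 7.84 and 7.42 with vehicle at 1 week, and fell by 0.89 between weeks (SE 0.19, limma adjusted p 0.0374). For both genes the 2-week vehicle arrays were the lowest, and neither was called without replicate 1 of vehicle at 1 week (-0.84 and -0.67) or without either 2-week vehicle array.

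Fn1, the fibronectin gene, read 11.00 and 10.70 with GW2580, 9.57 and 9.92 with vehicle at 2 weeks, and 10.55 and 10.31 with vehicle at 1 week. GW2580 exceeded vehicle at 2 weeks by 1.10 (SE 0.18, limma adjusted p 0.0530), just short of the threshold. In 4 other settings with all arrays it passed, while with all probe sets it did not (limma adjusted p 0.0524). With 1 array left out the Fn1 difference ran from 0.93 to 1.28. A second Fn1 probe set, below the filter, differed by 0.49 in the same comparison (limma adjusted p 0.353). Bhlhe40, for a transcriptional repressor of the clock, was 0.83 higher with GW2580 than with vehicle at 2 weeks (SE 0.18, limma adjusted p 0.0851). Acta2, for smooth muscle actin, differed by -0.68 between GW2580 and vehicle at 1 week (SE 0.20, limma adjusted p 0.139) and is also one of the fibroblast markers whose mean was lower there.

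**Figure D5:**
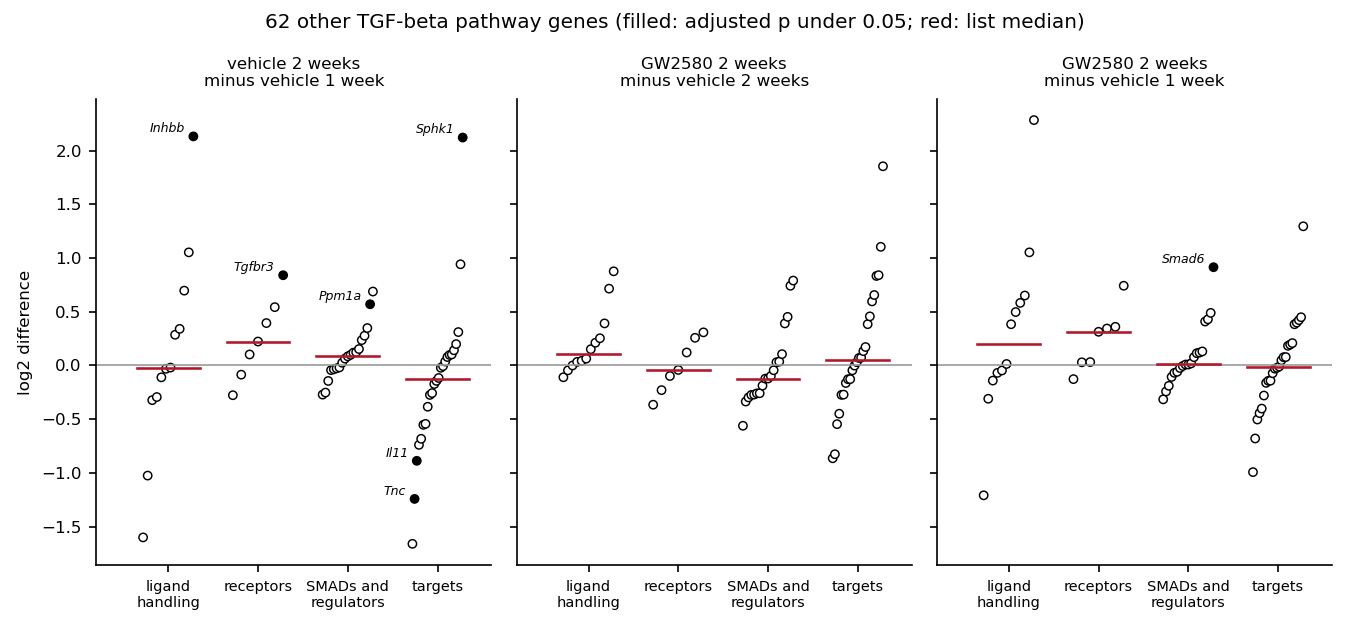
Log2 difference (y axis) of the 62 other pathway genes in 4 lists (x axis) for the 3 comparisons; each point is a gene, filled where the adjusted p was under 0.05, and red bars are list medians. The filled genes number 6 between vehicle at 2 weeks and 1 week and 0 between GW2580 and vehicle at 2 weeks, with Smad6 alone filled between GW2580 and vehicle at 1 week.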

How the data were processed

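The authors deposited log2 expression values for 45101 probe sets, which the submitters' processing notes credit to RMA; its version was not stated. RMA corrects background, quantile-normalises and summarises probes, which removes any change common to most genes. Controls (64 probe sets) were dropped before testing. Symbols came from the platform annotation (34945 probe sets with 1 symbol, 932 with several, 9160 with none), and 34741 matched RefSeq by gene identifier. The probe set with the highest mean stood for a gene, and genes below 4.97 (the 40th percentile) were left out.

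Tests used limma 3.58.1 in R 4.3.3 (lmFit with 3 group means over 6 arrays, eBayes), with 3 residual degrees of freedom and Benjamini-Hochberg adjustment over 13090 genes; the procedure was tested on simulated data. Groups of 2 arrays are too few for a permutation test.

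The 9 genes, the pathway and marker lists and the named-gene rule (all 9 genes; per list and comparison up to 4 called genes or the 2 with the smallest p; the 3 genes most like each called one) were chosen with earlier results of these data known. Acta2, Col1a1 and Dcn stand in both kinds of list. Alternatives covered the filter, probe set choice, scaling, prior, arrays fitted, replicate number as a block and each array left out.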

Additional observations from a re-analysis of the deposited data

How the results depend on the processing

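Tgfbi kept its direction in every comparison and setting run, and the 9 genes gave the same number of calls in all settings with 6 arrays; leaving out single arrays gave 0 to 1 of them for vehicle at 2 weeks against 1 week and 0 to 1 for GW2580 against vehicle at 1 week. Of 432 alternative values of the 9 genes, 417 kept direction and side of the threshold, 3 (all Tgfbi) lost the call and 12 changed sign, none of them called. Causes were not tested. Fits that left 1 array in a group assumed that it varied like the other groups. Leaving out an array of the group outside a comparison gave as many called genes as fitting only the 4 arrays compared, so such fits add little. Other background corrections and scan batches could not be tried on RMA values.

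Genes called with an array left out numbered 0 to 1059 for vehicle at 2 weeks against 1 week (844 with all), 0 to 167 for GW2580 against vehicle at 2 weeks (48) and 0 to 169 for GW2580 against vehicle at 1 week (67). For GW2580 against vehicle at 2 weeks there were 74 with no filter, 75 with a prior trend, 81 with a robust prior, 193 of all probe sets and 0 on the 4 arrays compared (limma, 2120 at an unadjusted p under 0.05); for GW2580 against vehicle at 1 week there were 24 on the 4 arrays and 36 of all probe sets. Pathway genes called between weeks (6) became 3 with the mean of all probe sets, 10 on 4 arrays, 2 with all probe sets and 0 to 10 with an array left out. For GW2580 against vehicle at 2 weeks (0) they became 1 with no filter, 1 with a trend, 1 with a robust prior and 0 to 2 with an array left out. Against vehicle at 1 week, GW2580 (1) gave 3 at a common 75th percentile, 3 with a trend, 2 with a robust prior, 0 on 4 arrays, 0 with all probe sets and 0 to 5 with an array left out.

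Arrays were not paired by replicate number in the main fit. Deviations of same-numbered arrays correlated at -0.05 (vehicle at 2 weeks and 1 week) and -0.03 (GW2580 and vehicle at 2 weeks). For GW2580 and vehicle at 1 week they correlated at 0.19. Whether same-numbered arrays share a factor was not tested. With the replicate block, 1223, 154 and 182 genes were called in the order vehicle at 2 weeks against 1 week, GW2580 against vehicle at 2 weeks and GW2580 against vehicle at 1 week, with 12, 2 and 4 pathway genes, and Tgfbi kept its calls.

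Signs turned for differences that were not called. Between weeks, the mean of all probe sets gave -0.0724 for Tgfbr1, -0.29 for Smad3 and -0.0522 for Acvr1, and all probe sets without replicate 2 of vehicle at 2 weeks gave 0.0791 for Tgfb1; with an array left out Tgfb1 ranged from -0.78 to 0.0791, Acvr1 from -0.0944 to 0.30 and Thbs1 from -0.63 to 0.0446. For GW2580 against vehicle at 2 weeks, the mean of probe sets gave 0.0702 for Acta2 and 0.23 for Tgfbr3; with an array left out Smad3 ranged from -0.14 to 0.23, Acta2 from -0.31 to 0.0604, Inhbb from -0.30 to 0.61, Ltbp4 from -0.53 to 0.53 and Tgfbr3 from -0.32 to 0.12. For GW2580 against vehicle at 1 week, the mean of probe sets gave -0.0057 for Acvr2a and a common 75th percentile -0.0005 for Ppm1a; with an array left out Tgfb1 ranged from -0.10 to 0.43, Tgfb2 from -0.44 to 0.0547, Tgfbr1 from -0.15 to 0.0683, Inhba from -0.0463 to 0.14, Acvr2a from -0.15 to 0.21, Ppm1a from -0.0624 to 0.0803 and Tnc from -0.81 to 0.0022.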
